A study of Arabidopsis thaliana with 12 samples.

Results

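The transcripts described here are those whose spots were among the brightest in wild-type (WT) Arabidopsis thaliana and could be assigned to a single gene. All probes of the array were ranked by intensity within each of the 6 WT columns, the ranks were averaged, and the brightest 10% (344 probes) were kept. Of these, 49 were assigned by the platform annotation to exactly 1 gene. Leaving out PRK, PSBW, PSBY, PSAN, LHB1B2, NdhS, AT3G54210 and AT2G36480 gave 41 members, each for a different locus, out of 692 probes with exactly 1 gene on the array. Because the members were chosen by their WT intensities, their WT levels are a description, and so is any difference from WT, since a probe picked for being bright in WT can more easily stand lower than higher elsewhere.

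The study compared the pam48 mutant, in ecotype Columbia 0, with the WT of the same ecotype, with 6 columns per genotype numbered 1 to 6 in the titles. The labels describe the mutant as altered in photosynthesis and lacking the function of a protein they leave unidentified; they give no allele, tissue, age or growth condition, and they do not say whether plants were pooled. Total RNA was measured as spot intensity on a linear scale with a maximum of 100. Median intensity ran from 0.233 to 0.305 over the pam48 columns and from 0.0913 to 0.192 over the WT columns, so levels are given as the percentile of a spot within its own column, where 100 is the brightest spot, and differences as percentile points, pam48 minus WT. Ranks within a column do not move when a column is rescaled. A percentile orders spots, not transcripts, because probes differ in how they bind their targets and related transcripts can bind to 1 spot. Columns 1 and 2, 3 and 4, and 5 and 6 of a genotype were closer to each other than to its other columns in 12 of 12 cases, and are called couples here. In RNA from whole samples, fewer cells of a type and less RNA per cell cannot be told apart.

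In a green plant cell the nucleus encodes most proteins of the chloroplast, and transcripts for the light reactions, carbon fixation and chlorophyll synthesis are usually among the most abundant. Mutants with altered photosynthesis are used to ask how such nuclear transcripts follow the state of the chloroplast. The gene table used here gives a name for 9 of the 41 members, among them CUTA, CCL, CYN, PSB27, ATSIK, HEMA3, ATSPS4F and XERICO; what is said of other loci is general knowledge of their protein families, and a locus with no remark is named only. Of 26 marker loci for green leaf, seed, flower and senescence that were looked up, 2 had a probe with exactly 1 gene. Both were leaf markers that the rule leaves out: LHB1B2 stood on average at percentile 98.9 in pam48 and 99.3 in WT, and PSBY at 86.5 in pam48 and 95.8 in WT. The markers of seed, flower and senescence were not measured by such a probe.

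The members stayed bright in pam48. All 41 lay within the brightest 25% of probes there, and 33 lay within the brightest 10% when the 6 pam48 columns were ranked by the same rule. The 8 that did not were AT3G09080, AT1G44830, AT1G17160, AT2G47360, AT1G54500, AT2G04700, AT1G21500 and AT1G55440. Among all 344 probes in the brightest 10% of WT, 91 (26.5%) lay outside the brightest 10% of pam48, so the members' 19.5% is no result about them. The share of the 344 within the brightest 25% of pam48 was not counted, so the count of 41 there is not read as a result about the members either. The median of the members' mean percentiles was 92.4 in pam48 and 92.5 in WT, and the lowest of these means were 76.4 in pam48 and 89.0 in WT. Of the 40 members that were never at the maximum of the scale, 20 had a higher mean percentile in pam48 and 20 a lower one, with a median difference of -0.0388 points. With AT3G09850, whose spot was at the maximum in most columns, the median was 0.08 points, its own value. Of all probes 53.8% had a lower mean percentile in pam48, and of the 344 brightest in WT 69.5%, among which the members were chosen. The members' differences reached from -13.9 to 4.96 points, with 6 members at least 5 points lower and 0 at least 5 points higher. With mean percentiles of 89.0 or above in WT, members had more room to fall than to rise. These counts were not made for the 344, so the skew is no result about the members. Among the other probes of the 344, some reached further, such as a probe at 89.39 in WT and 65.0 in pam48, and another at 89.45 in WT and 98.02 in pam48.

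**Figure D1:**
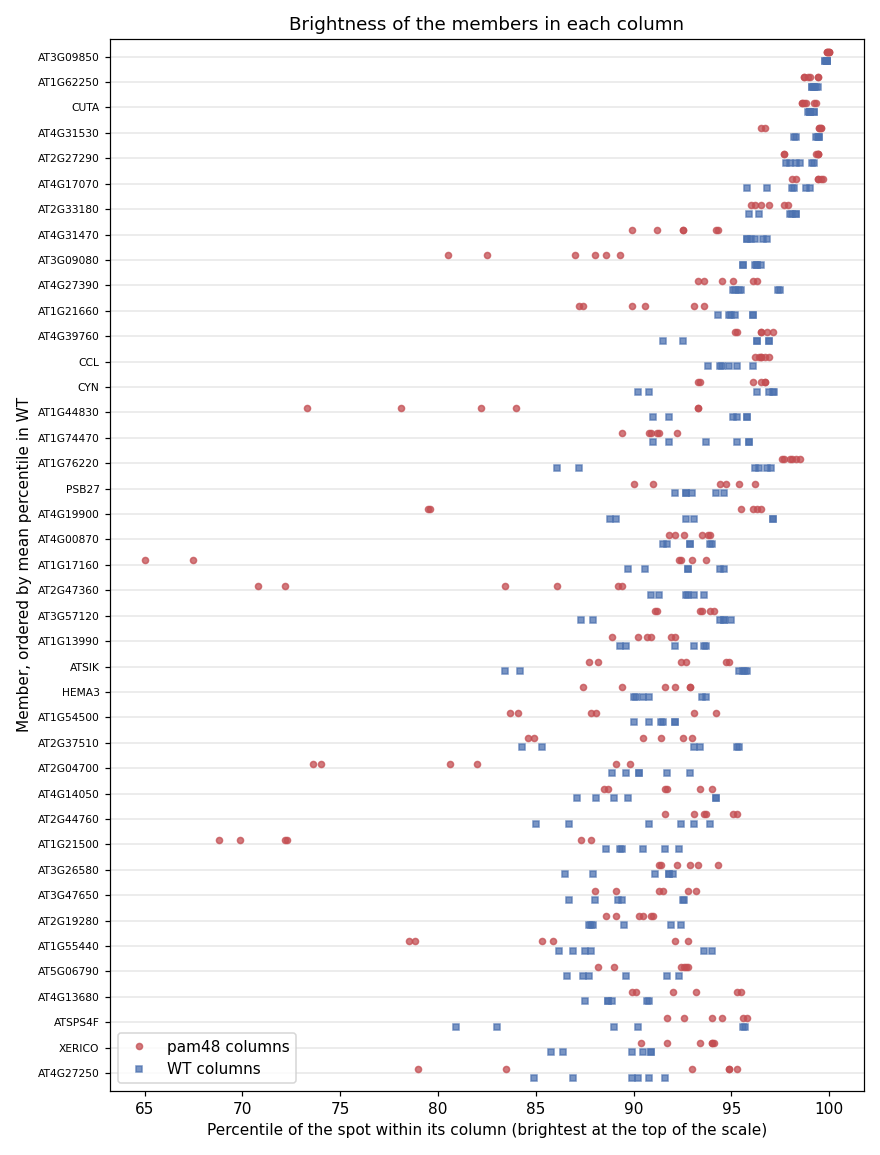
Percentile of each member's spot in each of the 12 columns (x axis, 100 the brightest spot), with members in order of their mean percentile in WT. Circles are the 6 pam48 columns and squares the 6 WT columns. The top 7 members lie above 95 in all columns, and AT1G17160, AT1G21500, AT2G47360, AT2G04700 and AT1G44830 have pam48 columns below 75.

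The single-gene probes can be set beside the rest of the bright spots. Of the 239 probes in the brightest 10% of WT that the annotation does not list, 74.9% had a lower mean percentile in pam48, with a median difference of -1.02 points. Of the 56 probes assigned to several genes, 62.5% were lower, with a median of -0.841. Of the 49 single-gene probes, 51.0% were lower, with a median of -0.15, and 48.8% of the 41 members were. No test of these shares was made.

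**Figure D2:**
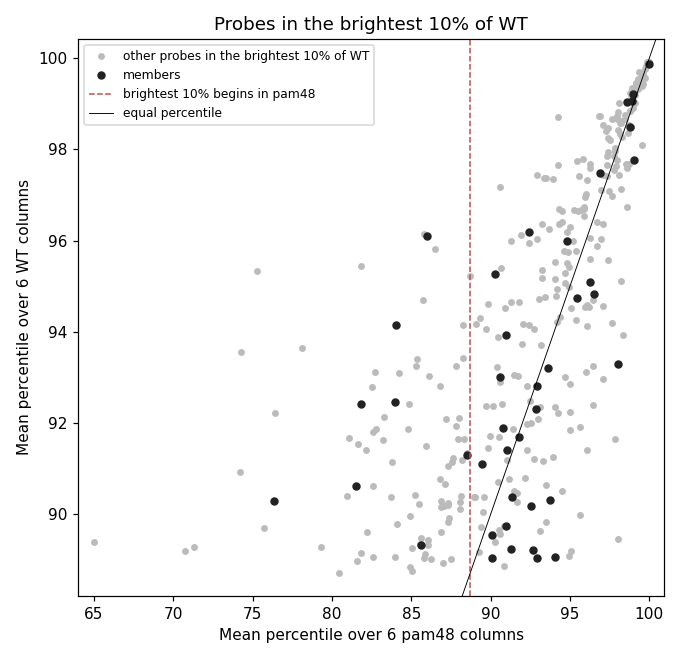
Mean percentile over the 6 pam48 columns (x axis) against the mean over the 6 WT columns (y axis) for the 344 probes in the brightest 10% of WT. Black points are the 41 members, grey points the other probes, including the 8 genes that the rule leaves out; the dashed line marks where the brightest 10% begins in pam48, at a mean percentile of 88.7. The 8 members left of it stand between 76.4 and 88.5 in pam48.

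The brightest members kept their places at the top of the array. AT3G09850, a protein with a G-patch domain of the kind found in RNA-binding proteins, stood at the maximum of 100 in 6 of 6 pam48 columns and in 4 of 6 WT columns, and at 60.2 and 60.5 in WT numbers 4 and 3. At the maximum an intensity is only a lower bound, so no difference can be read for this spot. Spots at the maximum share their rank, so its place among the few brightest spots has no order either. AT1G62250 had a percentile of 98.7 to 99.4 in pam48 (median 99.0) and of 99.1 to 99.4 in WT (median 99.2). CUTA, a chloroplast member of the CutA family of metal-binding proteins, ran from 98.6 to 99.3 in pam48 (median 98.8) and from 98.9 to 99.2 in WT (median 99.0). For these 2 genes the columns of the genotypes overlapped and their mean percentiles differed by -0.213 and -0.174 points.

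Next in brightness were AT4G31530, of the NAD(P)-binding Rossmann-fold family, and AT2G27290. In pam48 AT4G31530 lay between 96.5 and 99.6 (median 99.5), against 98.2 to 99.5 in WT (median 99.3), and in both genotypes its low columns were numbers 5 and 6. AT2G27290 lay between 97.7 and 99.4 in pam48 (median 99.3) and between 97.8 and 99.2 in WT (median 98.4). AT4G17070, of the peptidyl-prolyl isomerase family that helps proteins fold, ran from 98.1 to 99.7 in pam48 (median 99.4) and from 95.8 to 99.0 in WT (median 98.1), which overlap. As deposited, its intensity had a median of 19.9 in pam48 and 5.9 in WT, and its place in the averaged order was 27 in pam48 and 68 in WT. Deposited intensities were higher in pam48 over all probes too, by a median log2 difference of 1.06. The percentile difference of AT4G17070 was 3.11 points in numbers 3 and 4 but 0.0436 in numbers 5 and 6. Limma with couples as a random block did not call it (adjusted p = 0.26). AT2G33180 ran from 96.0 to 97.9 in pam48 and from 95.9 to 98.3 in WT, which overlap.

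In 7 members the 6 pam48 columns and the 6 WT columns did not overlap. In 5 of them pam48 was lower (12.2% of members, against 3.98% of all probes and 14.8% of the 344 brightest in WT), and in 2 it was higher (4.88%, against 2.56% of all probes and 2.62% of the 344). These shares are printed beside each other only, since WT brightness enters both the choice and the count. Leaving out a couple can only keep or raise this count, and the rise differed between couples. With numbers 5 and 6 left out 26 members did not overlap, where 38.8% of all probes and 65.4% of the 344 did not. With numbers 3 and 4 left out 11 did not, against 10.4% of all probes and 23.5% of the 344, and without numbers 1 and 2 it was 7, against 12.2% and 23.8%. Over all 6 numbers and in either direction 6.54% of all probes did not overlap.

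**Figure D3:**
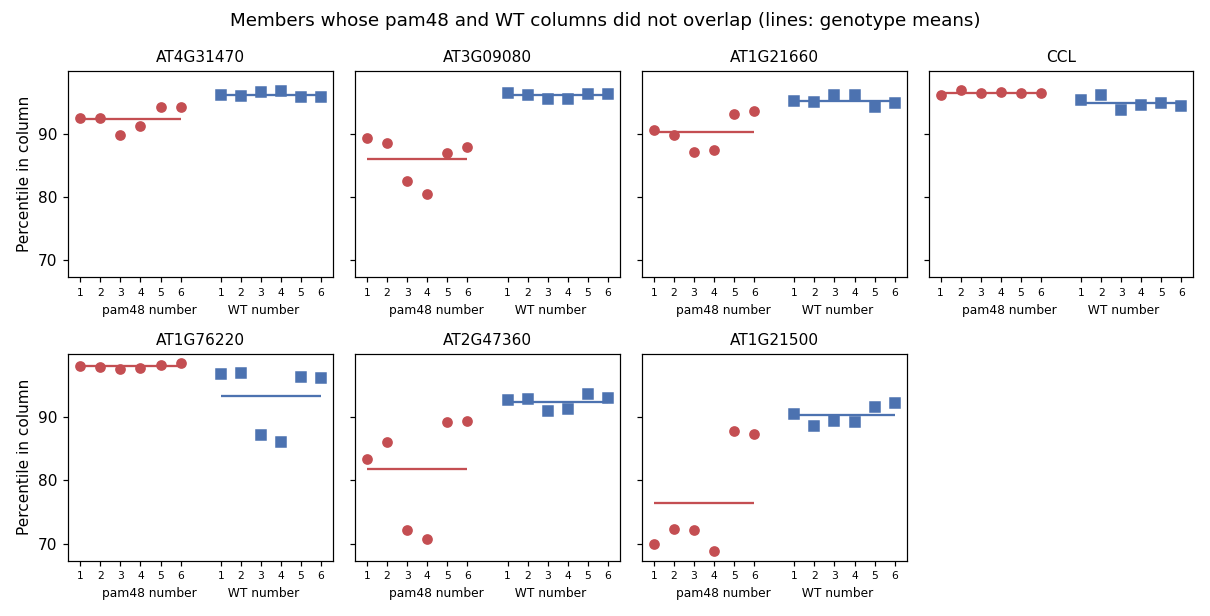
Percentile in each column (y axis) of the 7 members whose genotypes did not overlap, with the 6 pam48 columns on the left and the 6 WT columns on the right of each panel, by number. Horizontal lines are the genotype means. For AT1G21500 pam48 numbers 5 and 6 stand at 87.8 and 87.3, close under WT, while pam48 numbers 1 to 4 stand between 68.8 and 72.3.

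AT3G09080, which encodes a protein of the WD40-repeat family, was the one of these that limma called. Its percentile ran from 80.5 to 89.3 in pam48 (median 87.5), against 95.6 to 96.5 in WT (median 96.3). The genotypes were well apart, and pam48 numbers 3 and 4 were the lowest. It was lower in each couple, by a difference of -7.40 points in numbers 1 and 2, -14.1 in 3 and 4 and -8.87 in 5 and 6. On the log2 scale after quantile normalisation, the difference was -1.81 ± 0.28 (SE, 6 columns per genotype), a level 3.51-fold lower in pam48, and it passed limma's test over all probes with couples as a random block (adjusted p = 0.0193). It was the only member called in that fit, 1 of 41, where 0.233% of all probes were called. The call rests on the couples: with the columns of each couple averaged limma called 0 probes, 0% of all (adjusted p = 0.396 for AT3G09080, and 7 of 41 members, 17.1%, at an unadjusted p under 0.05, against 11.2% of all probes), and it was not called without numbers 1 and 2 (adjusted p = 0.981) or without numbers 3 and 4 (adjusted p = 0.513). With the number as a replicate block its adjusted p was 0.00422 with each column as a sample and 0.122 with couples averaged. Over all settings tried its limma adjusted p ran from 0.000306 to 0.981 and its log2 difference from -2.58 to -1.48.

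The other members that stood wholly lower in pam48 were AT4G31470, AT1G21660, AT2G47360 and AT1G21500. AT4G31470 has a CAP domain, as pathogenesis-related protein 1 has, and AT1G21660 a DnaJ domain, found in proteins that work with Hsp70 chaperones. AT4G31470 ran from 89.9 to 94.3 in pam48 (median 92.5) and from 95.8 to 96.8 in WT (median 96.1). AT1G21660 ran from 87.2 to 93.6 in pam48 (median 90.3) and from 94.3 to 96.1 in WT (median 95.1). For both, pam48 numbers 5 and 6 came nearest to WT. AT2G47360 had percentiles from 70.8 to 89.4 in pam48 (median 84.7), against 90.9 to 93.6 in WT (median 92.8), and its lowest columns were pam48 numbers 3 and 4. AT1G21500, the member that stood furthest below its WT percentile, ran from 68.8 to 87.8 in pam48 (median 72.2), against 88.6 to 92.3 in WT (median 89.9). Its place in the averaged order was 723 in pam48 and 285 in WT. These 4 did not pass limma's test with couples as a random block (adjusted p = 0.167 to 0.198), with log2 differences of -0.96, -0.99, -1.16 and -1.23. With the number as a replicate block and each column as a sample all 4 passed (limma, adjusted p = 0.0169 to 0.0415), where 12.8% of all probes were called, and with that block on averaged couples none did (adjusted p = 0.22 to 0.276).

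The 2 members that stood wholly higher in pam48 were CCL and AT1G76220. CCL, a transcript known for mRNA stability that changes with the time of day, ran from 96.2 to 96.9 in pam48 (median 96.5) and from 93.8 to 96.1 in WT (median 94.7), so the genotypes nearly touched. AT1G76220 ran from 97.6 to 98.5 in pam48 (median 98.0) and from 86.1 to 97.0 in WT (median 96.3). WT numbers 3 and 4 made up the low end, at 87.2 and 86.1, and the other WT columns stood at 96.2 or above. Neither passed limma's test with couples as a random block (adjusted p = 0.424 and 0.185). With the replicate block and each column as a sample AT1G76220 passed (limma, adjusted p = 0.0217) and CCL did not (0.062), and on averaged couples neither did (0.216 and 0.42).

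Among the 3 members of photosynthetic electron transport and photosystem II, 2 stood lower on average in pam48 and 1 higher, their genotypes overlapped, and none was called by limma with couples as a random block. AT2G04700, the catalytic subunit of ferredoxin-thioredoxin reductase, which passes electrons from ferredoxin to thioredoxin to switch on chloroplast enzymes, ran from 73.6 to 89.8 in pam48 (median 81.3) and from 88.9 to 92.9 in WT (median 90.3). Its pam48 columns 1 to 4 lay at 82.0 or below, and pam48 numbers 5 and 6 lay at 89.8 and 89.1, within the WT range. AT1G54500, a rubredoxin of the thylakoid, ran from 83.7 to 94.2 in pam48 and from 90.0 to 92.1 in WT; here pam48 numbers 5 and 6 stood above every WT column and the other 4 below. PSB27, which takes part in the assembly and repair of photosystem II, ran from 90.0 to 96.2 in pam48 (median 94.6) and from 92.1 to 94.6 in WT (median 92.8), with a mean difference of 0.412 points.

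Of 5 members in protein folding and turnover, 4 had a higher mean percentile in pam48 and 1, AT1G21660, a lower one. AT3G47650, the BSD2-type chaperone of Rubisco assembly, averaged 91.0 ± 2.03 in pam48 and 89.8 ± 2.37 in WT (SD, n = 6 each), so that its difference of 1.23 points was smaller than the spread of either genotype. Here and below, n counts columns, which form 3 couples per genotype and need not be independent samples. XERICO, a RING-H2 protein that raises abscisic acid levels, ran from 90.4 to 94.1 in pam48 (median 93.7) and from 85.8 to 90.9 in WT (median 90.2). Only the lowest pam48 column of XERICO reached into the WT range, but it was not called (limma, adjusted p = 0.347). AT4G39760, of the F-box and kelch-repeat family, averaged 96.2 ± 0.784 in pam48 and 95.1 ± 2.40 in WT (SD, n = 6 each).

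The 9 members placed in other metabolism differed among themselves, with 6 lower on average in pam48, 3 higher, and mean differences from -8.49 to 4.96 points. AT1G17160, a carbohydrate kinase of the pfkB type, was low in 2 columns: pam48 numbers 5 and 6 stood at 65.0 and 67.5, while pam48 numbers 1 to 4 ran from 92.3 to 93.7 and the WT columns from 89.7 to 94.6. AT4G19900, a glycosyltransferase, showed the same 2 columns low, at 79.5 and 79.6, with its other pam48 columns between 95.5 and 96.5 and its WT columns between 88.8 and 97.1. For both genes numbers 5 and 6 were also the lowest WT columns, at 89.7 and 90.6 for AT1G17160 and at 88.8 and 89.1 for AT4G19900. In the other direction ATSPS4F, a sucrose phosphate synthase, ran from 91.7 to 95.8 in pam48 (median 94.2) and from 80.9 to 95.7 in WT (median 89.6), and its difference was 12.2 points in numbers 3 and 4 but 0.0727 in numbers 5 and 6.

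Both tetrapyrrole genes among the metabolic members stayed in the brightest 10%. AT1G74470, geranylgeranyl reductase, makes the phytyl chain of chlorophyll and averaged 91.0 ± 0.908 in pam48 and 93.9 ± 2.14 in WT (SD, n = 6 each). HEMA3, of the glutamyl-tRNA reductase family that opens tetrapyrrole synthesis, averaged 91.0 ± 2.21 in pam48 and 91.4 ± 1.70 in WT (SD, n = 6 each). CYN, a cyanase, averaged 95.4 ± 1.63 in pam48 and 94.7 ± 3.32 in WT (SD, n = 6 each). In all 3 the genotypes overlapped.

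Besides AT3G09850, 5 members bind nucleic acids or regulate transcription, of which 3 were higher on average in pam48 and 2 lower. AT1G44830, an AP2/ERF transcription factor, differed most: it ran from 73.3 to 93.3 in pam48 (median 83.1) and from 91.0 to 95.8 in WT (median 95.2). Its difference was -12.5 points in numbers 1 and 2 and -19.8 in 3 and 4, but 1.89 in 5 and 6, where both pam48 columns stood above both WT columns. The bHLH transcription factor AT4G00870 averaged 92.9 ± 0.917 in pam48 and 92.8 ± 1.07 in WT (SD, n = 6 each). The pentatricopeptide repeat proteins AT4G14050 and AT2G19280, of a family that processes RNA in organelles, had mean differences of 0.95 and 0.523 points, and AT2G37510, with an RNA-recognition motif, one of -1.63. The 2 protein kinases, ATSIK and AT3G57120, had mean differences of 0.0969 and 0.572 points, each smaller than its SD in either genotype.

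The remaining members include AT2G44760, AT3G26580, AT5G06790 and AT4G13680, which stood higher on average in pam48, by 3.40, 2.38, 2.05 and 3.46 points. AT2G44760, AT5G06790 and AT4G13680 were higher in each couple, and AT3G26580 was not, with a difference of -0.0727 points in numbers 5 and 6. AT4G13680 ran from 89.9 to 95.5 in pam48 (median 92.6) and from 87.5 to 90.8 in WT (median 88.8). AT1G55440 averaged 85.6 ± 6.21 in pam48 and 89.3 ± 3.49 in WT (SD, n = 6 each), and AT4G27390 and AT1G13990 differed by -1.18 and -1.13 points. The last members inside the rule's limit were XERICO and AT4G27250, at places 334 and 336 of the WT order, and the first single-gene probes outside it were AT1G79220 and AT1G50390, at places 347 and 348. Mean percentiles of those 4 in WT were 89.1, 89.0, 88.7 and 88.6, and in pam48 92.9, 90.1, 84.2 and 83.3. On average the 2 just inside stood higher in pam48 and the 2 just outside lower, but this did not hold in each couple. In numbers 5 and 6 the differences were 0.887 points for XERICO, -4.67 for AT4G27250, 5.6 for AT1G79220 and 0.422 for AT1G50390.

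**Figure D4:**
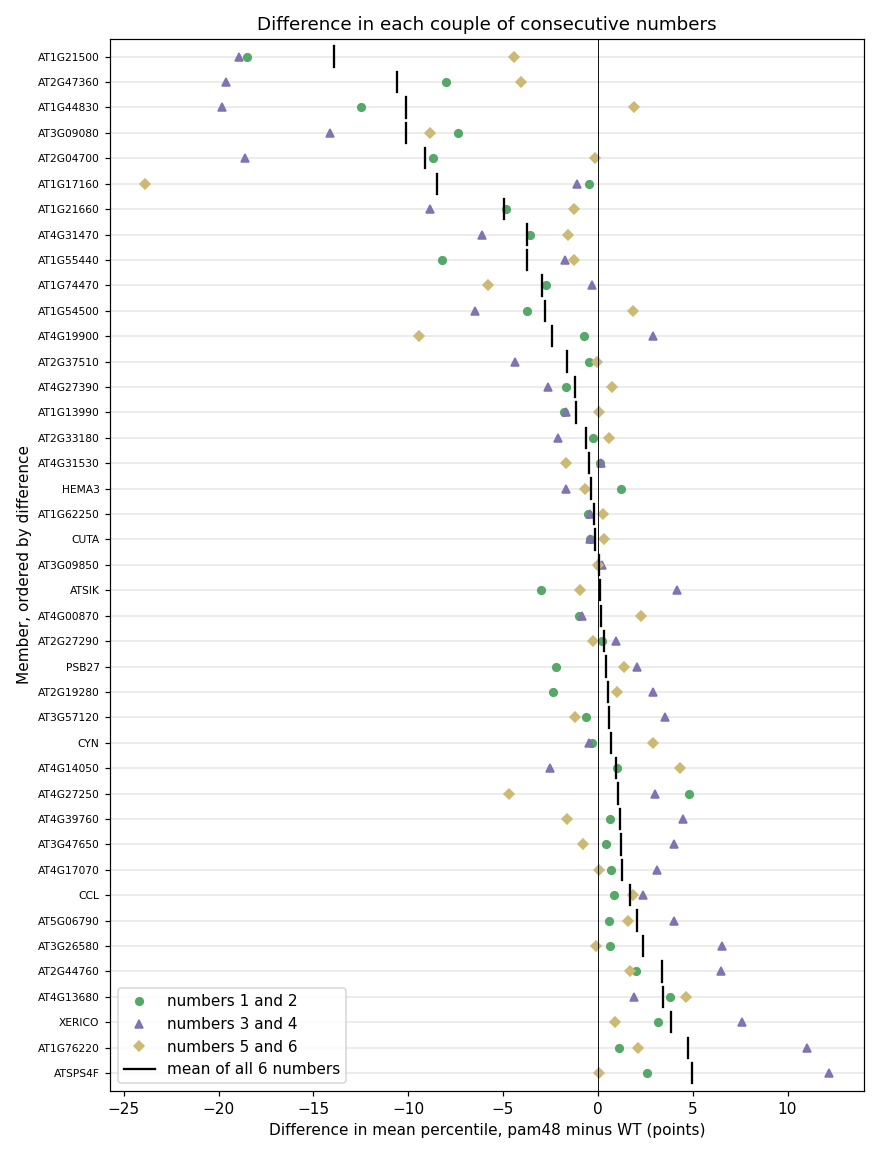
Difference in mean percentile, pam48 minus WT (x axis, points), of each member in numbers 1 and 2 (circles), 3 and 4 (triangles) and 5 and 6 (diamonds), with the mean over all 6 numbers as a vertical tick. Members run from the most negative mean difference, AT1G21500 at -13.9, to the most positive, ATSPS4F at 4.96; diamonds lie near 0 for many members whose triangles lie far from it, and AT1G17160 shows the opposite.

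The differences varied between couples. Of the 41 members, 10 (24.4%) were lower in pam48 in all 3 couples, 9 (22.0%, with AT3G09850 counted) were higher in all 3, and 22 had both signs. Of the 344 probes in the brightest 10% of WT, 37.8% were lower in all 3 and 12.2% higher; no test of these shares was made. At least 10 points lower stood 2 members in numbers 1 and 2, 5 in numbers 3 and 4 and 1, AT1G17160, in numbers 5 and 6. At least 10 points higher stood 2, both in numbers 3 and 4: AT1G76220 and ATSPS4F. Across the 41 members the differences in numbers 1 and 2 followed those in 3 and 4 (r = 0.83), while those in 5 and 6 followed either little (r = 0.16 with each). The 344 probes in the brightest 10% of WT gave 0.86, 0.21 and 0.21. These correlations describe probes that share the same columns and are not over replicates. The labels do not say what the numbers mark, and the part of hybridisation or growth in this pattern was not tested.

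Spread between columns was small for bright spots, whose percentiles have little room above them. The SD of a member's percentile over 6 columns had a median of 1.63 points in pam48 and 1.97 in WT, against 8.07 in pam48 and 9.59 in WT over all probes. Over the 344 probes in the brightest 10% of WT this median was 1.78 in pam48 and 1.09 in WT. The members' median SD in WT was thus larger than that of the bright spots they were chosen from. Within a couple the members' percentiles differed by a median of 0.291 points in either genotype, and by at most 4.83 in pam48 and 2.15 in WT. The largest SD was that of AT1G17160 in pam48, at 13.8 points. Of the intensity summed over all probes, the brightest 10% of each genotype held 65.4% to 71.6% in the pam48 columns and 74.2% to 83.3% in the WT columns.

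On the log2 intensity scale the direction of the members as a set depended on the scaling. After quantile normalisation their median difference was -0.06, against -0.13 for all probes, and after cyclic loess it was 0.08, against 0.01. With the columns centred on their medians it was -0.90, against -0.05 for all probes, and on the deposited intensities it was 0.20, against 1.06 for all probes. With each column as a sample, limma called 8 members, 7 lower and 1 higher in pam48, where 16.8% of all probes were called, 11.9% lower and 4.89% higher. Those 8 were AT4G31470, AT3G09080, AT1G21660, AT1G44830, AT2G47360, AT2G04700 and AT1G21500, which were lower, and AT1G76220, which was higher. Of the 7 lower ones, 5 were those without overlap, and 1 of the 8, AT3G09080, passed with couples as a random block.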

How the data were processed

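The members and lists were chosen with earlier results of these data known. The deposited table holds 1 intensity per probe and column, scaled by the authors from 0 to 100; how the spots were labelled, scanned, background-corrected and normalised is not given in the sources. Genotypes came from the sample titles. Names came from the platform annotation, brought up to date with the TAIR10.1 table by Entrez number (690 of 692 single-gene probes matched); that table holds no product names, so functional groups were placed by hand after the members were known. Percentiles were ranks within a column, ties averaged. For limma 3.58.1 in R 4.3.3, intensities were quantile normalised, values under a column's 5th percentile of positive values were raised to it, and log2 was taken; no member was at this floor. The main fit (lmFit, duplicateCorrelation with couples of consecutive numbers as random block, consensus correlation 0.812, eBayes, two-sided) was adjusted by Benjamini-Hochberg over all probes, threshold 0.05. The labels do not say whether columns came from separate plants, so p-values measure only the spread between columns, which may be technical, and their number limits the precision. Same-numbered pam48 and WT columns deviated together (r = 0.188 to 0.419). Columns of different numbers were not compared across genotypes, so it is not known whether single numbers or couples are paired. The main fit does not use this pairing, and the fits with a replicate block do.

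Genes were named by rule: the 8 brightest members in WT, the 8 lowest and 8 highest differences, the 2 brightest of each group, and the 2 on either side of the limit; the other members named were chosen after their values were seen. On simulated data with effects shared within couples, the main fit made more false calls than its threshold allows. No sequence table came with the series, so promoter motifs were not searched. Alternatives covered the scaling, the floor, the couples, the pairing, the columns and the choice of members.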

Additional observations from a re-analysis of the deposited data

How the results depend on the processing

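The count of members called by limma was 1 with couples as a random block. It was 8 with median centring (3.69% of all probes called), 3 with 1 common floor (1.77%), 8 with each column as a sample (16.8%), 0 with couples averaged (0%), and 0 to 9 with 1 couple of numbers left out, the 9 without numbers 5 and 6 (19.7%). Pairing the columns by a replicate block on the number gave 6 (12.8%): AT3G09080, AT4G31470, AT1G21660, AT2G47360, AT1G21500 and AT1G76220. On averaged couples the block gave 0, where limma called 3 of all probes and no member's adjusted p was under 0.122. Adding the 8 genes that the rule leaves out, an alternative chosen after seeing the data, gave 2. The median log2 difference was -0.9 with median centring; in the other scalings it moved by less than the spread between columns. Members without overlap numbered 7 to 26 with 1 couple left out, a count that fewer columns can only keep or raise. For the brightest 5% (14 members) and 20% (100 members), 8 and 56 stood lower in pam48, 4 and 17 did not overlap, and 3 and 20 lay outside the same share of pam48, which follows in part from the number of members. Chosen by the mean rank over all 12 columns (42 members), 4 lay outside the brightest 10% of pam48. The pam48 ranks took part in that choice, which by itself favours a lower count. For the 28 members named by rule, 134 of 140 recomputed percentile differences moved by less than the spread between columns and 6 by more. Of the 28, 20 kept 1 sign in every setting. Those without overlap kept theirs too, but leaving out a couple could not have changed it, because their genotypes lie apart in every column. Spots at the maximum of 100, here AT3G09850, have only a lower bound.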
